A study of Panonychus citri with 4 samples.

Results

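The miRNAs miR-1 and miR-133 were described in small RNA libraries of whole citrus red mites (Panonychus citri), a spider mite that feeds on citrus leaves. Their members were every listed name made of miR-1 or miR-133 alone or followed by a letter, a hyphen suffix or both, which gave 18 of the 594 names in the 4 libraries, 10 for miR-1 and 8 for miR-133. The libraries came from pooled whole animals with no treatment given in the labels: over 3000 embryos, 2500 larvae, 1500 nymphs and 1000 adults. The nymph pool mixed protonymphs with deutonymphs, and the labels give no sex or age for the adults. There was 1 library per stage, so all values compare these libraries, no test of the stages was possible, and intervals are 95% intervals that cover counting error only. Reads of amplified libraries are not independent molecules.

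Both miRNAs are known from muscle in animals as distant as insects and mammals. In Drosophila miR-1 is made in muscle of the body wall and heart, and larvae without it die while growing. In mice miR-1 promotes muscle differentiation and miR-133 the proliferation of myoblasts, and in vertebrates both are cut from shared transcripts. In locusts miR-133 acts on dopamine synthesis, so that its known roles in arthropods are not limited to muscle. In a whole animal, fewer muscle cells and less miRNA per cell cannot be told apart.

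The sequences below are those the reads were listed under, written as DNA with T for U, 5′ to 3′, with the seed (bases 2 to 8, the part that pairs with targets) in capitals. The first 3 are the rows that carried almost all miR-1 reads, the next 2 are the leading and the shorter row of miR-133, and the last is a vertebrate muscle name with the miR-1 seed, set here for comparison.
miR-1: tGGAATGTaaagaagtatggag
miR-1b: tGGAATGTaaagaagtatgg
miR-1a-3p: tGGAATGTaaagaagtatg
miR-133: tTGGTCCCcttcaaccagct
miR-133-3p: tTGGTCCCcttcaaccagc
miR-206-3p: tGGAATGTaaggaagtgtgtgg

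The miR-1 rows above begin at the same base and differ only at the 3′ end. They are 22, 20 and 19 nucleotides (nt) long, so the letters b and a in these names mark length variants and no difference in seed or body. The leading miR-133 row has 20 nt and its variant lacks the last base. The seeds of miR-1 and miR-133 differ. Of the 18 names, 4 had reads in all 4 libraries: miR-1, miR-1b, miR-1a-3p and miR-133. The embryo library listed 5 of the 18, the larva 11, the nymph 15 and the adult 8. Over all 594 names the libraries listed 262, 273, 346 and 270 from embryo to adult. The part of depth in these counts was not tested.

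The embryo list held 248256 reads, the larva list 1012278, the nymph list 1258698 and the adult list 438409. These were 4.17%, 17.04%, 21.2% and 7.41% of library totals that lay between 5918115 and 5957910 reads. Levels are given per 1000000 listed reads (listed RPM) or per 1000000 reads of the library total (library RPM). Which reads the library totals hold is not given in the sources used here, so a library RPM also depends on what else was counted. Since the listed share differed between libraries, the scales can order the stages differently.

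The miR-1 rows together held about as many listed reads as all other names combined in the larva, nymph and adult libraries, and a smaller share in the embryo. They took 19.6% of the embryo list (48748 reads, interval 19.5 to 19.8), 50.1% of the larva list (507599 reads, 50.05 to 50.2), 50.9% of the nymph list (640401 reads, 50.8 to 51.0) and 47.1% of the adult list (206295 reads, 46.9 to 47.2). The embryo stood apart, and the other 3 libraries lay within a narrow band. By names summed over their miRNA number, miR-1 ranked 3 in the embryo, just below miR-92 with 20.6% (20.4 to 20.7), and 1 elsewhere. The next miRNA was miR-184, which acts in the Drosophila female germline, in the larva and nymph, where miR-1 had 2.62 and 3.79 reads for each of its reads. In the adult it was miR-34, linked to ageing in Drosophila, with 2.69 miR-1 reads for each of its reads.

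Measured against the library totals, the same reads spread the 4 libraries widely. The embryo library had 8182 library RPM of miR-1 (8110 to 8255), the larva 85439 (85215 to 85664), the nymph 107725 (107476 to 107974) and the adult 34858 (34711 to 35006). From low to high the order was embryo, adult, larva and nymph on both scales. On the library scale the nymph level was 13.2 times the embryo level, against 2.59 times in listed RPM.

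The level of miR-133 was far below that of miR-1 and differed more between libraries. Its reads numbered 26 in the embryo library, 521 in that of the larva, 3301 in that of the nymph and 560 in that of the adult. In listed RPM these were 104.7 (68.4 to 153.5), 514.7 (471.4 to 560.8), 2623 (2534 to 2713) and 1277 (1174 to 1388). The nymph was highest and the embryo lowest, with the adult above the larva, and no intervals overlapped. In library RPM the values were 4.36 (2.85 to 6.39), 87.7 (80.3 to 95.6), 555.3 (536.5 to 574.5) and 94.6 (86.9 to 102.8) from embryo to adult. On that scale the larva and adult intervals overlapped, so these neighbours in the order did not differ beyond counting error. By miRNA number miR-133 ranked 44, 26, 16 and 21 from embryo to adult.

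**Figure D1:**
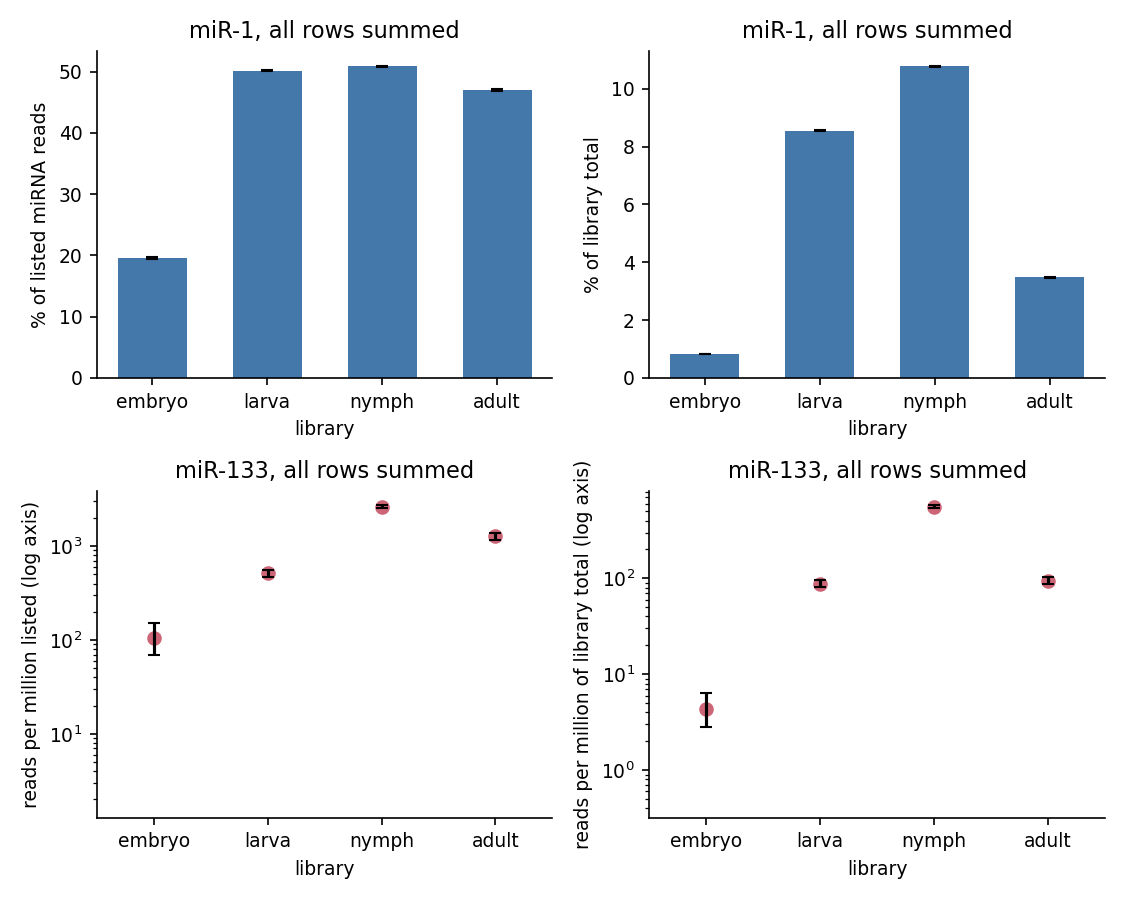
Levels of miR-1 (top, bars, percent of listed reads at left and of the library total at right) and miR-133 (bottom, points, RPM on a log axis) in the 4 libraries, with 95% counting intervals. The miR-1 share was 19.6% in the embryo and between 47.1% and 50.9% in the other libraries, while miR-133 was highest in the nymph on both scales.

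Libraries were then compared in 6 pairs. Where both libraries together held 30 reads or more of a miRNA, it was called higher if the whole interval of its ratio exceeded 2, and lower if the whole interval of the inverse ratio did. In the larva, miR-1 was 2.55-fold (2.53 to 2.58) and miR-133 4.91-fold (3.32 to 7.59) the embryo level in listed RPM. Both were called higher, as were 22.8% of the 57 miRNA numbers tested, and ranked 14 and 10 from the top. Scaled to the library totals the ratios were 10.4 and 20.1, beside 43.9% of numbers called higher.

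From larva to nymph the ratio of miR-133 was far larger than that of miR-1. The ratio for miR-133 was 5.10 (4.64 to 5.60) in listed RPM, which ranked 2 among 62 numbers tested, of which 11.3% were called higher. For miR-1 it was 1.01 (1.01 to 1.02), ranked 48, with no call. The miR-1 rows held 50.1% of the larva list, so in listed RPM no higher call over the larva was possible for miR-1. With listed reads other than miR-1 as the total, its ratio was 1.03 (1.026 to 1.034), also with no call. With the library totals miR-133 stood at 6.33 (5.77 to 6.96) and miR-1 at 1.26 (1.26 to 1.27), again with a call for miR-133 alone of the pair, beside 19.4% of numbers called higher. The direction for miR-1 was not the same under all scalings: it was 0.716 with the trimmed mean of M values (TMM) and 0.714 with median-of-ratios scaling.

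Against the nymph, the adult had a miR-133 ratio of 0.487 (0.445 to 0.533) and a miR-1 ratio of 0.925 (0.920 to 0.929) in listed RPM, with no call for the pair and 9.23% of the 65 numbers tested called lower. The miR-133 ratio ranked 58 of the 65 from the top, against 43 for miR-1. Relative to the library totals both were called lower, miR-133 at 0.170 (0.156 to 0.186) and miR-1 at 0.324 (0.322 to 0.325), beside 40.0% of numbers called lower. For miR-133 the same call came from median-of-ratios scaling, from TMM and from listed reads other than miR-1 as the total.

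Across wider spans, the nymph over embryo ratio of miR-133 was 25.04 (17.1 to 38.4) in listed RPM and 127.2 (86.7 to 195.1) with the library totals, ranked 2 of 63 numbers, while miR-1 had 2.59 (2.57 to 2.62) and 13.2 (13.05 to 13.3). In that pair miR-1 ranked 22, and 31.7% of numbers were called higher in listed RPM and 49.2% with the library totals. The adult over embryo ratio was 12.2 (8.24 to 18.8) for miR-133 and 2.40 (2.37 to 2.42) for miR-1, with 32.8% of 58 numbers called higher. Scaled to the library totals these were 21.7 (14.6 to 33.5) and 4.26 (4.22 to 4.30), and 34.5% were called higher. Here miR-133 ranked 8 and miR-1 20 of the 58. Ranks within a pair of libraries are the same under any scaling. All these ratios to the embryo were called higher, and those of miR-133 rest on 26 embryo reads.

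In adult over larva the ratio of miR-1 lay below 1 and that of miR-133 above 1 under all 5 scalings, but the calls changed with the scaling. In listed RPM miR-133 was 2.48-fold the larva level (2.20 to 2.80) and called higher, as were 30.0% of 60 numbers, and miR-1 had a ratio of 0.938 (0.934 to 0.943). From the top miR-133 ranked 24 and miR-1 50 of the 60 numbers, whose median log2 ratio was 1.06 in listed RPM. With the library totals miR-133 had 1.08 (0.956 to 1.22) with no call, and miR-1 was called lower at 0.408 (0.406 to 0.410), beside 21.7% of numbers.

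**Figure D2:**
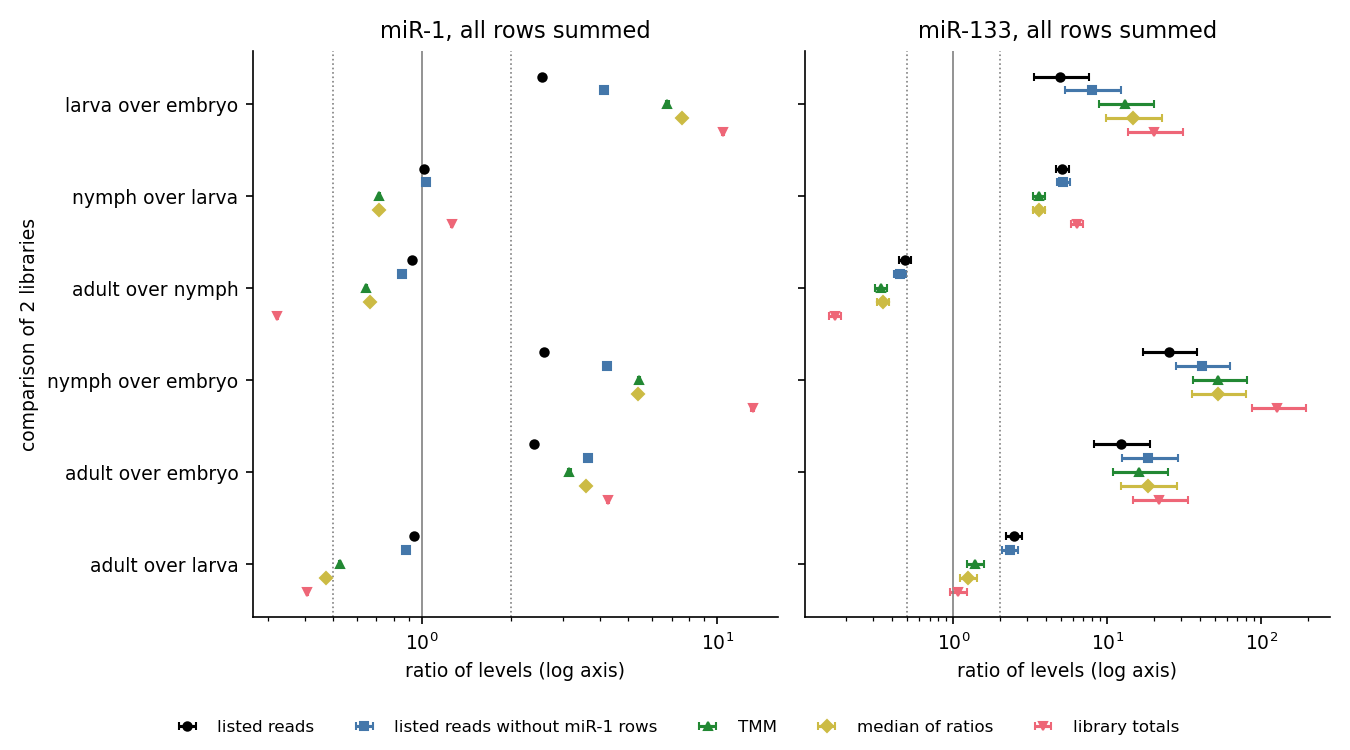
Ratios of summed miR-1 (left) and miR-133 (right) levels between 2 libraries under 5 scalings, on a log axis, with 95% counting intervals (often narrower than the symbol); the solid line marks 1 and dotted lines 2-fold in each direction. In nymph over larva all 5 miR-133 symbols lie beyond 2-fold while those of miR-1 lie on both sides of 1, between 0.714 and 1.26.

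The number of miR-133 reads per 1000 miR-1 reads does not depend on any scaling. The embryo library had 0.533 (0.348 to 0.782), the larva 1.03 (0.940 to 1.12), the nymph 5.15 (4.98 to 5.33) and the adult 2.71 (2.49 to 2.95). The nymph was thus 5.02 times the larva (4.58 to 5.52) and 9.66 times the embryo (6.58 to 14.8), and the adult 2.64 times the larva (2.34 to 2.99) and 5.09 times the embryo (3.44 to 7.86), each beyond 2-fold. The adult was 0.527 times the nymph (0.481 to 0.576) and the larva 1.92 times the embryo (1.30 to 2.97), and neither passed 2-fold.

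Set against miR-124, a neuronal miRNA in animals, the pair also differed. For each miR-124 read the embryo library had 14.7 miR-1 reads (14.2 to 15.2), the larva 42.7 (42.0 to 43.5), the nymph 23.3 (23.04 to 23.6) and the adult 39.4 (38.3 to 40.5). The nymph value lay below those of the larva and adult, and the nymph over larva ratio was 0.545 (0.534 to 0.558). For miR-133 the reads per 1000 miR-124 reads were 7.84 (5.11 to 11.5), 43.9 (40.1 to 47.9), 120.2 (115.9 to 124.6) and 106.8 (97.7 to 116.6) from embryo to adult. Here the nymph was highest, 2.74 times the larva (2.49 to 3.02), and the adult lay close below it at 0.889 times the nymph (0.807 to 0.977). The listed RPM of miR-124 itself was 13357, 11730, 21820 and 11957 from embryo to adult, so its nymph value was the highest too.

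**Figure D3:**
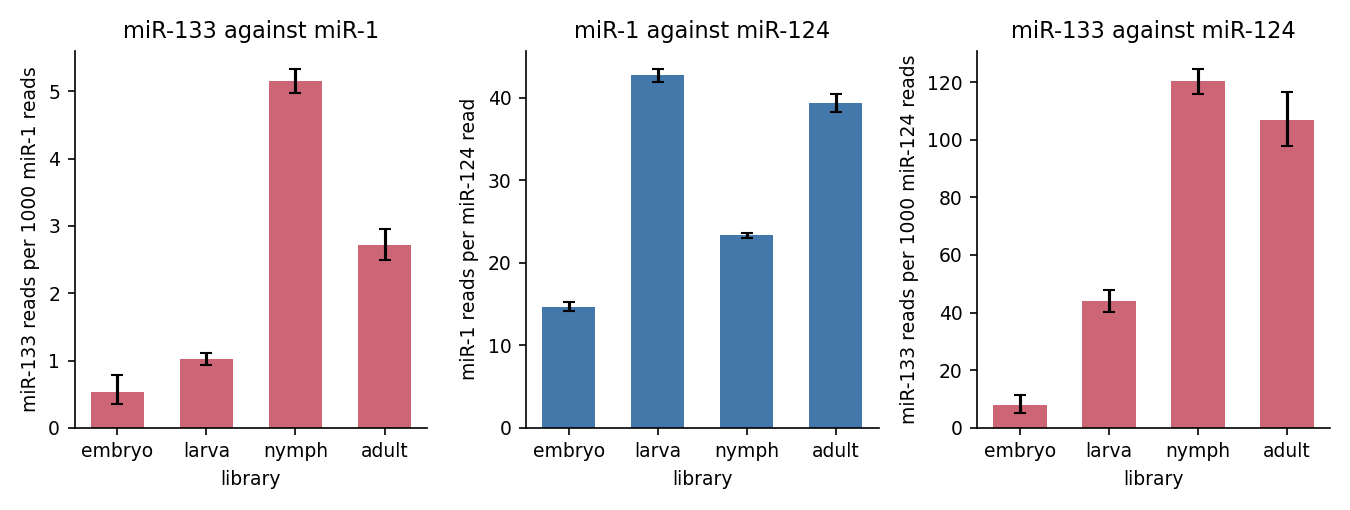
Reads of miR-133 per 1000 miR-1 reads (left), of miR-1 per miR-124 read (middle) and of miR-133 per 1000 miR-124 reads (right) within each library, with 95% counting intervals. Against miR-1, miR-133 was highest in the nymph at 5.15, and against miR-124, miR-1 was highest in the larva at 42.7.

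The lengths of the miR-1 rows shifted between the libraries. The 22 nt row held 88.3% of miR-1 reads in the embryo library (43037 reads, 87.996 to 88.6), 88.5% at the larva stage (449108 reads, 88.4 to 88.6), 84.7% at the nymph stage (542420 reads, 84.6 to 84.8) and 82.7% at the adult stage (170662 reads, 82.6 to 82.9). The 20 nt row, miR-1b, held 9.17% (4472 reads), 9.22% (46793), 10.9% (69554) and 12.7% (26265). The 19 nt row, miR-1a-3p, held 2.54% (1239 reads), 2.30% (11688), 4.44% (28406) and 4.54% (9362). Both shorter rows thus took a larger share in the nymph and adult than in the embryo and larva.

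Per read of the 22 nt row, the 19 nt row was 2.01 times as frequent in the nymph as in the larva (1.97 to 2.06), and 2.11 times in the adult as in the larva (2.05 to 2.17). The same ratio for the 20 nt row was 1.23 (1.22 to 1.25) and 1.48 (1.45 to 1.501). Adult over larva in the 19 nt row was the 1 length ratio of the 4 past 2-fold. These ratios were computed after the shares had been seen. Among all other names, sequences of up to 20 nt held 31.3%, 29.3%, 34.7% and 34.3% of reads from embryo to adult, against 11.7%, 11.5%, 15.3% and 17.3% for miR-1. The other names therefore also had larger shares of short sequences in the nymph and adult, and the part of this in the miR-1 lengths was not tested. The shorter rows had fewer reads than the 22 nt row that contains them, so they do not count all reads holding their sequence. Whether the 22 nt row also counts reads of other lengths is not given in the sources used here.

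**Figure D4:**
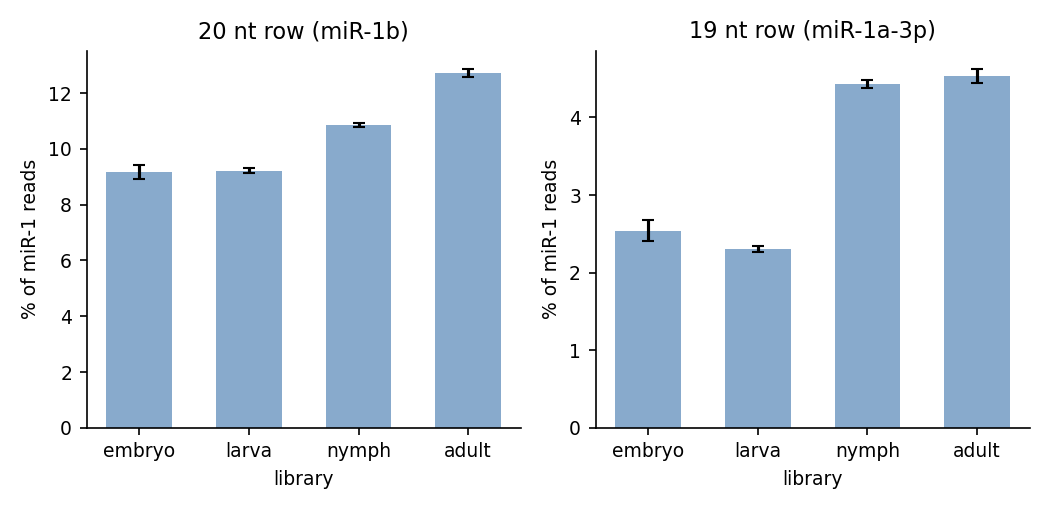
Share of miR-1 reads in the 20 nt row (left) and the 19 nt row (right) by library, with 95% counting intervals. Both shares were higher in the nymph and adult libraries than in the embryo and larva, with 4.44% and 4.54% against 2.54% and 2.30% for the 19 nt row.

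The other 7 miR-1 names and 7 of the 8 miR-133 names were rare. For miR-1, 6 names matched the leading arm with a mismatch and held 0, 10, 20 and 6 reads from embryo to adult. The most frequent was miR-1c-3p, a 19 nt sequence with T18C against the leading row (positions count from 1 at its 5′ end), with 6, 11 and 4 reads in the larva, nymph and adult. That is 5.13 (1.88 to 11.2), 3.87 (1.93 to 6.93) and 4.27 (1.16 to 10.9) reads per 10000 reads of the matching 19 nt row, values whose intervals overlap. Of the 9 miR-1 names on the leading arm, 7 carried the same seed. The other 2, miR-1e-3p with 5 nymph reads and miR-1d-3p with 1 larva read, began 1 base earlier and so have a shifted seed.

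Among the miR-133 names, miR-133-3p, the row 1 base shorter, had 1 embryo read, 1 larva read, 17 nymph reads and no adult row. Names with a mismatch held 1 larva read and 13 nymph reads, which were 4 each of miR-133a-3p (A17G) and miR-133b-3p (T10G), 3 of miR-133a (G3T, inside the seed) and 2 of miR-133c (C9T). The name miR-133c-3p, which begins 1 base earlier and is otherwise without mismatch, had 2 adult reads. The leading row alone held at least 96.2% of miR-133 reads in each library, so that no stage value of miR-133 turned on a variant.

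Reads named for the opposite arm of the precursor were scarce. The name miR-1-5p had 1 read, in the nymph, against 640380 reads of the leading arm without mismatch. The name miR-133-5p had 1 read in the larva and 2 in the nymph, which were 0.192% (0.00486 to 1.06) and 0.0606% (0.00734 to 0.219) of miR-133 reads. In the embryo and adult, where miR-133-5p had no row, 3 reads would be 11.5% and 0.536% of miR-133 reads, so that the depth of the embryo library says little of that arm.

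A list of muscle miRNAs from vertebrates and Drosophila also held miR-206, miR-208, miR-499, miR-486 and miR-92b. Of its 24 listed names, 6 had enough reads to be tested in larva over embryo. The 4 called higher there were miR-1, miR-1b, miR-1a-3p and miR-133, where 28.8% of all 104 names tested were called higher. The 2 called lower were miR-486 and miR-92b-3p, where 43.3% were called lower. The call of miR-486 was made in listed RPM alone of the 5 scalings, while that of miR-92b-3p held under all 5. In listed RPM the list's median log2 ratio was 1.28, against -0.38 over all names tested. Rows of the pair were 4 of the 6 names in that median, and miR-1b and miR-1a-3p are length variants of miR-1. The list medians given here therefore mostly repeat rows of the pair and lend no support for a wider muscle set. In nymph over larva 1 of 5 was called higher, miR-133, where 22.6% of 115 names were, and the medians were 0.26 for the list and 0.48 for all. In adult over nymph 0 of 5 were called in either direction. Of all 113 names tested there, 24 (21.2%) were called lower and 17 higher. The medians were -0.08 for the list and -0.02 for all.

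Read numbers under the vertebrate muscle names were low and differed little between libraries. The name miR-206, whose relatives are skeletal muscle miRNAs in vertebrates with the miR-1 seed, had 7, 7, 14 and 13 reads from embryo to adult, or 1.17, 1.18, 2.36 and 2.20 library RPM. This is a 2.004-fold range, against 13.2-fold for miR-1 and 127.2-fold for miR-133 on that scale. In listed RPM miR-206 stood at 28.2, 6.92, 11.1 and 29.7, a 4.29-fold range with the embryo near the top, where miR-1 had its lowest value. The name miR-486, found in vertebrate muscle and blood cells, had 49, 56, 61 and 51 reads, a 1.25-fold range in library RPM and a 4.07-fold range in listed RPM, in which the embryo was highest. The miR-499 name, from a vertebrate myosin gene, had 1, 1, 3 and 1 reads, and miR-208 had no row. Whether reads under these vertebrate names come from the mite was not tested. In Drosophila a miRNA named miR-92b acts on the muscle factor Mef2. The miR-92b names had 58 embryo reads, 4 larva reads and no row in the nymph and adult. Of these, miR-92b had 18 embryo reads, and miR-92b-3p 40 embryo and 4 larva reads. The 2 sequences differ within their shared length, and whether either is the counterpart of the Drosophila miRNA was not tested. The miR-92b names were thus highest in the library where miR-1 and miR-133 were lowest. All miR-92 names summed, which include these rows, likewise had 51026 reads in the embryo and 1579, 1010 and 77 from larva to adult. The stage pattern is therefore not particular to the miR-92b names.

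The miRNAs whose stage profiles were most like those of the pair were found by the mean absolute difference in log2 reads over the 4 libraries, after centring, among 38 miRNA numbers with at least 30 reads in every library. This measure does not depend on scaling, and it is a description over 4 libraries. Closest to miR-1 was miR-5735, with a mean difference of 0.07 and 208.6, 225.1, 247.2 and 227.9 reads per 1000 miR-1 reads from embryo to adult, a 1.18-fold range. It was followed by miR-7, which acts in photoreceptor development in Drosophila (0.21), miR-190 (0.33), miR-2, which acts on cell death genes in Drosophila (0.37), and miR-184 (0.41). The median over all others was 1.03. The profile of miR-133 stood at 1.17 from that of miR-1. Among single names, set against the leading miR-1 row, miR-190 and miR-184 were not in the closest 5. Those were miR-5735-3p (0.11), miR-71a-5p (0.17), miR-263b (0.21), miR-2b-3p (0.32) and miR-7 (0.35).

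Closest to miR-133 was miR-87, which acts in dendrite regrowth in Drosophila (0.39), with 49, 2696, 10200 and 1614 reads from embryo to adult. Then came miR-3931 (0.44), miR-317, a neighbour of miR-34 in the Drosophila genome (0.65), bantam, a growth promoter in Drosophila (0.70), and miR-252 (0.75), where the median of all 38 was 1.69. The limit of 30 reads is one that miR-133 itself misses in the embryo, and at 10 reads miR-210, with 104.7, 274.6, 1162 and 946.6 listed RPM, came second (0.41). By name, with leading rows, the 19 nt row miR-1a-3p was the fifth (0.73), after miR-87, miR-3931, miR-317 and bantam. By this measure miR-1 ranked 12 of the 38 in likeness to miR-133. Even miR-87 did not hold a fixed proportion to miR-133, with 1885, 5175, 3090 and 2882 reads per 1000 miR-133 reads. The profile of miR-133 thus had no match as close as that of miR-5735 with miR-1.

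**Figure D5:**
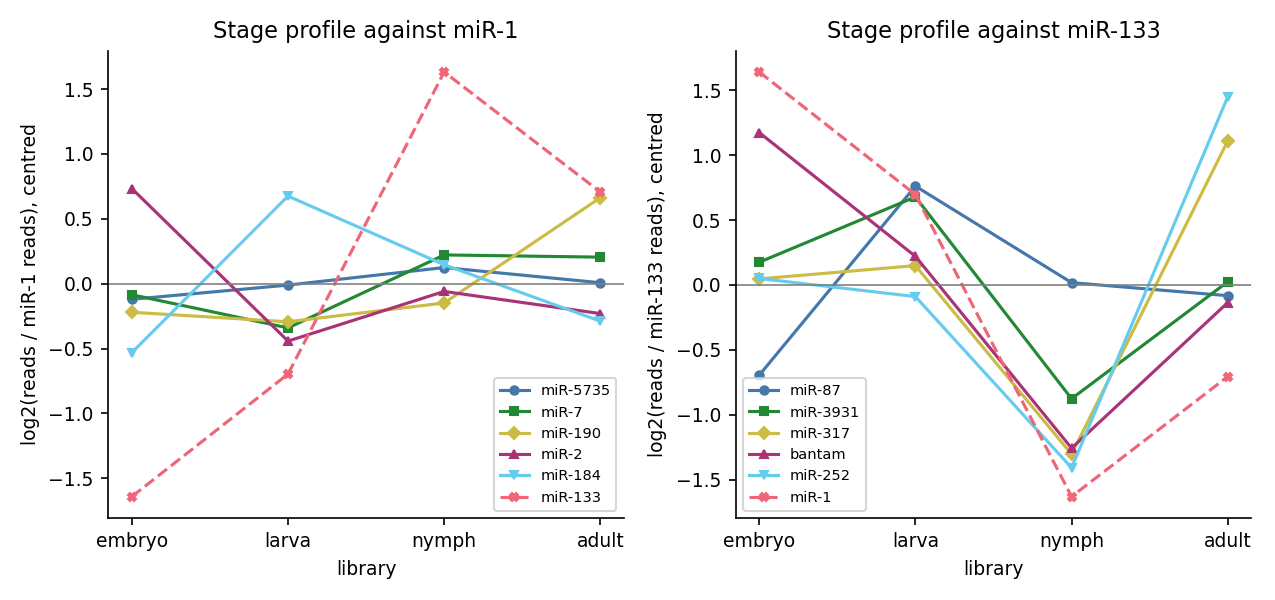
Stage profiles of the 5 miRNA numbers most like miR-1 (left) and miR-133 (right), as centred log2 of their reads over the reads of miR-1 or miR-133 in each library; a flat line at 0 is an identical profile, and the dashed line is the other member of the pair. The miR-5735 line stays near 0 against miR-1 (mean difference 0.07), while miR-133 departs from miR-1 by 1.17 on average.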

How the data were processed

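Per the labels' protocols, RNA of 18 to 30 nt was isolated on a 15% polyacrylamide gel, joined to adapters, reverse transcribed and amplified for sequencing. Each deposited list gives, per the file headers, known miRNA names with their reads, sequences and normalized values. The counts deposited are whole reads per name. The deposited normalized values are reads per 1000000 (RPM) of a library total, which was recovered here by division. How reads were matched to names is not given in the sources used here. A list holds only names with reads, so a missing row does not show absence.

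Names were summed by miRNA number. Shares have Clopper-Pearson intervals, ratios exact conditional binomial intervals, and read proportions exact conditional odds ratio intervals (SciPy 1.17.1, Python 3.11.15). TMM trimmed 30% of ratios and 5% of levels per side, and median-of-ratios used names with at least 10 reads in every library. The call rule was tried on simulated reads with counting error only. That trial holds no variation between libraries of the same stage, so it says nothing of such variation. Named miRNAs were all rows of the pair, the muscle list, the 5 closest profiles to each, the miRNA next in rank to miR-1, and miR-124. The members and lists were chosen with earlier results of these data known. No replicates exist, so no test was run. Whole animals hold many tissues. From embryo to adult, marker lists held 1.38%, 1.30%, 2.44% and 1.42% of listed reads for neuron, 0.471%, 0.784%, 0.841% and 0.242% for sense organ, 0.0814%, 0.206%, 0.315% and 1.21% for gut, fat and epithelium, and 3.24%, 19.1%, 13.4% and 9.19% for germline and ovary, against 19.6%, 50.2%, 51.1% and 47.2% for muscle. The marker list for muscle was miR-1 and miR-133 alone, so its shares repeat those of the pair. It is not the longer muscle list described above, which also held names such as miR-486 and miR-92b. In the germline and ovary list miR-184 held all 193513 larva reads and all 169136 nymph reads. Those shares therefore follow miR-184 and do not measure germline tissue. The neuron names with a row were miR-124, miR-7, miR-137, miR-153, miR-210 and miR-219. The part of these tissues in the results was not tested.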

Additional observations from a re-analysis of the deposited data

How the results depend on the processing

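No paired analysis was possible because each stage had 1 library and the labels give no replicate numbers. The calls of miR-1 and miR-133 over the embryo held under all 5 scalings, as did miR-133 in nymph over larva. Shares of the library total were 0.818%, 8.54%, 10.8% and 3.49% for miR-1 and 0.000436%, 0.00877%, 0.0555% and 0.00946% for miR-133 from embryo to adult, and the leading miR-1 row alone held 17.3%, 44.4%, 43.1% and 38.9% of listed reads. With the library totals miR-1 was called lower in adult over nymph (0.324) and adult over larva (0.408), the latter also with median-of-ratios scaling (0.474). For miR-133 the adult over nymph ratio was called lower at 0.170 with the library totals, 0.452 without miR-1 rows, 0.350 with median-of-ratios scaling, at 0.341 with TMM and at a 1.5-fold limit (0.487). Its adult over larva call was lost with the library totals (1.08), TMM (1.39) and median-of-ratios scaling (1.25). In listed RPM, a 4-fold limit ended the calls of miR-1 over embryo (2.55, 2.59 and 2.40 in larva, nymph and adult). It also ended those of miR-133 in larva over embryo (4.91) and adult over larva (2.48). The same limit ended the calls of miR-133 per miR-1 read in adult over embryo (5.09) and adult over larva (2.64). Without miR-1 rows, miR-1 over embryo lay above 4 in the larva (4.12, 4.08 to 4.15) and nymph (4.24, 4.20 to 4.28). Larva ratios were 6.77 (TMM), 7.58 (median-of-ratios) and 10.4 (library totals), and nymph ratios 5.43, 5.41 and 13.2. Adult ratios stayed below 4 except with the library totals (4.26). For miR-133, larva over embryo was 7.92 (5.34 to 12.2) without miR-1 rows. At 1.5-fold miR-133 per miR-1 read was lower in adult over nymph (0.527).

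Over all names, 75 were called in larva over embryo, 38 in nymph over larva, 41 in adult over nymph, 92 in nymph over embryo, 51 in adult over embryo and 44 in adult over larva, and summed by number 38, 8, 15, 42, 24 and 24. With the library totals 66 were called in adult over nymph. The higher and lower calls split 30 to 45 in larva over embryo and 53 to 13 with the library totals, 17 to 24 and 7 to 59 in adult over nymph, 47 to 45 and 64 to 16 in nymph over embryo, and 29 to 15 and 12 to 31 in adult over larva. TMM gave 47 to 14, 11 to 37, 55 to 18 and 14 to 26 in these 4 comparisons, and median-of-ratios scaling 48 to 13, 11 to 35, 55 to 18 and 14 to 29. Without miR-1 rows the split was 39 to 26 in larva over embryo and 53 to 21 in nymph over embryo. In the muscle list the library totals gave 2 higher calls in nymph over larva, 4 in adult over nymph, all lower, and 1 lower in adult over larva, where listed RPM gave 1 higher. All of these were rows of miR-1 or miR-133. Over all names with the library totals, 34 of 115 were higher in nymph over larva and 59 of 113 lower in adult over nymph. In adult over larva 31 of 100 were lower with the library totals, and 29 of 100 higher in listed RPM. By name, 3 of the 5 profiles closest to miR-1 were the same. Counted among sequences with its seed, the leading miR-133 row held 100% in the adult. The causes were not tested. The embryo depth of 26 miR-133 reads limits the miR-133 ratios to that library.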
